A study of Jatropha curcas with 22 samples.

Results

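Jcr4S03468.40 is the gene model of Jatropha curcas, an oilseed shrub that withstands drought, that the authors described as a "ferritin precursor family protein". It is 1 of 57437 gene models in the deposited count table, and it was picked for its very large rise in severely droughted leaf. Its levels in those libraries and in the control they were set against are therefore given as a description, with no test. The RNA came from young leaves and root tips of a Cape Verde islands strain, from seedlings 36 days old when the treatments began, and was sequenced in 22 libraries that form 11 groups of 2. The drought groups were leaf and root under moderate drought (day 13 without water) and under severe drought (day 49 without water). The rewatered groups, leaf and root, are labelled day 52, and the sources give both 3 and 7 days of renewed watering. The watered controls were leaf and root at day 13, leaf and root with a joint label of days 49 and 52 that serves severe drought and rewatering alike, and leaf at day 0. Each library pooled 6 plants at days 0 and 49 and 3 plants at days 13 and 52, and the number is not given for the joint controls. The library titles carry "br" and a number, which may stand for biological replicate. Whether the 2 libraries of a group came from separate plants is not stated, so p-values speak of the spread between these libraries only, which may be technical.

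Ferritin is an iron storage protein whose subunits assemble into a hollow shell that holds iron as a mineral core. Plant ferritins are encoded in the nucleus and work mainly inside plastids, the organelles that use much of the iron of a leaf. Iron that is held in the shell cannot react with hydrogen peroxide, and in Arabidopsis ferritin transcripts are known to accumulate under iron excess and oxidative stress.

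Library totals lay between 37104762 and 82215677 reads, so that even the lowest levels of the ferritin rest on 19 reads or more. Transcripts of 18 gene models for photosystem and carbon fixation proteins summed to between 10548 and 20309 CPM (counts scaled to the library total) in leaf libraries and to between 56.1 and 131 CPM in root libraries, with no overlap between the labelled organs. Those of 6 root gene models parted the organs less, with 210 to 278 CPM in leaf libraries. They summed to 250 to 259 CPM in severe root, within the leaf range, and to 289 to 438 CPM in the other root libraries. The day 49/52 root control held 289 to 299 CPM of them. The 10 most abundant gene models took 6.15% to 9.29% of the reads in the severe drought libraries and 3.14% to 4.86% in all others. Summed transcripts of 26 embryo or seed gene models ran from 91.6 to 103 CPM in severe root, against 131 to 169 CPM in its day 49/52 control and 538 to 1315 CPM in the day 13 root control. They ran from 378 to 490 CPM in rewatered root, and from 504 to 532 CPM in rewatered leaf. Severe leaf held 164 to 191 CPM of them, and the day 49/52 leaf control 268 to 311 CPM. Summed transcripts of 6 vessel and phloem models ran from 127 to 147 CPM in rewatered root and from 144 to 159 CPM in moderate root. Severe root, at 73.3 to 88.0 CPM, overlapped its day 49/52 control, at 72.8 to 75.4 CPM. The part of these differences in the ferritin levels was not tested. In tissue samples such as these, a change in the share of a cell type and a change of RNA per cell cannot be told apart.

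The ferritin Jcr4S03468.40 was most abundant under severe drought, in both organs. In leaf it stood at 321 and 159 CPM under severe drought (13891 and 7317 reads), against 0.405 and 0.729 CPM in the day 49/52 control (19 and 30 reads). In root it stood at 385 and 299 CPM under severe drought, against 26.5 and 13.1 CPM in the day 49/52 control. The severe libraries of each organ lay above every other library of that organ, and the severe libraries of leaf and root overlapped. The authors' RPKM values correct for gene length, and their sorted values differ by at most 0.7 between libraries, so the columns share nearly 1 distribution by a step that the sources used here do not describe. In these values the ferritin ranked 308 and 656 among all gene models in the severe leaf libraries, and 304 and 358 in the severe root libraries. In the day 0 leaf libraries it ranked 20177 and 19818.

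**Figure D1:**
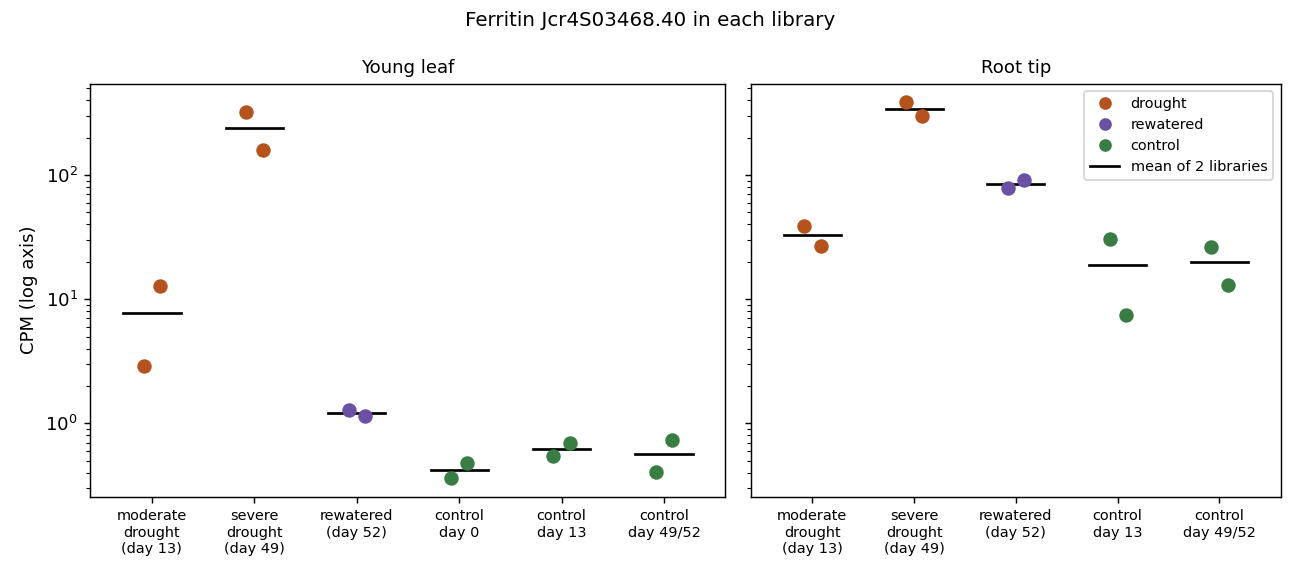
CPM of ferritin Jcr4S03468.40 in each library on a log axis, young leaf on the left and root tip on the right, with points for libraries and bars for the mean of 2. Severe drought stands highest in both organs (240 CPM in leaf, 342 CPM in root), and the watered leaf groups all average under 1 CPM.

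The remaining leaf groups were all low. Under moderate drought the leaf libraries held 2.88 and 12.7 CPM, after rewatering 1.27 and 1.15 CPM, and in the controls 0.363 and 0.475 CPM at day 0 and 0.544 and 0.693 CPM at day 13. Both moderate libraries lay above all rewatered and control libraries of leaf, but as a ratio they differed from each other more than any other pair of leaf replicates. The remaining root libraries held 38.7 and 26.9 CPM under moderate drought, 78.9 and 90.8 CPM after rewatering, and 30.6 and 7.43 CPM in the day 13 control. The moderate drought libraries overlapped the day 13 control and lay just above the day 49/52 control, and the rewatered root libraries lay between all of these and severe drought.

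With all 22 libraries on 1 scale, the 11 groups ran in this order by mean CPM: root severe (359), leaf severe (241), root rewatered (84.2), root moderate (32.9), root day 49/52 control (20.1), root day 13 control (19.4), leaf moderate (7.52), leaf rewatered (1.18), leaf day 13 control (0.617), leaf day 49/52 control (0.559) and leaf day 0 control (0.416). The highest mean was 863 times the lowest. Among the 10 neighbouring pairs in this order, 5 had libraries that did not overlap: leaf severe over root rewatered, root rewatered over root moderate, root moderate over the root day 49/52 control, leaf moderate over leaf rewatered, and leaf rewatered over the leaf day 13 control. The other 5 pairs overlapped, among them root severe and leaf severe.

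In severely droughted leaf the ferritin averaged 240 ± 115 CPM, against 0.567 ± 0.229 CPM in the day 49/52 control and 0.619 ± 0.105 CPM in the day 13 control (SD, n = 2 each). These means stand in ratios of 423 and 388. Without severe replicate 1, the more abundant library, the ratio to the day 49/52 control would be 280, and without severe replicate 2 it would be 566. Of the 23200 genes tested in leaf, 57.1% passed an adjusted p of 0.05 between severe drought and the day 49/52 control, with 27.6% higher and 29.5% lower. The ferritin's value in this comparison is the one it was chosen by.

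Moderate drought left no call in either organ. In leaf the ferritin averaged 7.79 ± 6.94 CPM under moderate drought, against 0.619 ± 0.105 CPM in the day 13 control (SD, n = 2 each), a log2 fold change of 3.64 (SE 0.71) with an adjusted p of 0.187 by edgeR's quasi-likelihood test with Benjamini-Hochberg adjustment. Both moderate libraries lay above both controls, and the ferritin was the 72nd of 23200 genes by unadjusted p (0.000585). In this comparison 1 gene, or 0.00431%, passed the threshold, and 2007 had an unadjusted p under 0.05. The call turned on 1 library: without leaf moderate replicate 1, the lower one, the log2 fold change was 4.35 with an adjusted p of 0.0335 in edgeR, and without replicate 2 it was 2.22 with an adjusted p of 0.278, each time with the lone library assumed to vary like the other groups. DESeq2's Wald test put the adjusted p at 0.000379 on the same libraries.

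In root the ferritin averaged 32.8 ± 8.35 CPM under moderate drought, against 19.02 ± 16.4 CPM in the day 13 control (SD, n = 2 each). The log2 fold change was 0.78 (SE 0.60) with an edgeR adjusted p of 0.450, in a comparison where 2.74% of genes passed. The higher control library lay among the moderate ones. Without day 13 control replicate 1, that higher library, the log2 fold change was 2.15 with an adjusted p of 0.0363 in edgeR, and without replicate 2 it was 0.07 with an adjusted p of 0.961. The leaf effect minus the root effect was 2.85 on the log2 scale (SE 0.99), with an adjusted p of 0.191, and 0.875% of genes passed this test of a difference between organs. It was 1.45 without leaf moderate replicate 2, 1.48 without root day 13 control replicate 1, 3.55 without leaf moderate replicate 1 and 3.52 without root day 13 control replicate 2, with adjusted p of 0.106 to 0.643 when any 1 of the 8 libraries was left out.

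The root libraries were not used in choosing the gene, and in severe root the ferritin rose. It averaged 342 ± 60.9 CPM under severe drought, against 19.8 ± 9.50 CPM in the day 49/52 control (SD, n = 2 each), a 17.2-fold difference (log2 4.11, SE 0.67) with an adjusted p of 0.00242 in edgeR. In this comparison 45.1% of 24924 genes passed, with 19.5% higher and 25.6% lower. Set against the day 13 root control the log2 fold change was 4.16 (SE 0.67, adjusted p = 0.00149 in edgeR), where 54.5% of genes passed. Without root day 49/52 control replicate 1 the log2 fold change against that control was 4.70, and the adjusted p stayed at or under 0.0230 when any 1 library of the comparison was left out. Without day 13 control replicate 1 the log2 fold change against day 13 was 5.52, and without replicate 2 it was 3.52, with adjusted p of 0.000670 and 0.00258 in edgeR.

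After rewatering the organs stood far apart, as did their day 13 controls. Whether the recovery differed between the organs was not tested. Rewatered leaf averaged 1.21 ± 0.0888 CPM, against 240 ± 115 CPM under severe drought (SD, n = 2 each), 198 times lower. Its mean was 2.13 times that of the day 49/52 leaf control. Against the day 13 leaf control, which took no part in choosing the gene, the log2 fold change was 0.98 (SE 0.78) with an adjusted p of 0.440 in edgeR, and 10.4% of genes passed. That fit shares its spread over all leaf groups, moderate drought among them. With only the 2 groups compared in the fit, the log2 fold change was also 0.98, with SE 0.30 and an adjusted p of 0.0593 in edgeR, still not called. Both rewatered leaf libraries nevertheless lay above all watered leaf libraries.

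In rewatered root the ferritin averaged 84.9 ± 8.45 CPM, against 342 ± 60.9 CPM under severe drought (SD, n = 2 each). It fell 4.03-fold (log2 -2.01, SE 0.61, adjusted p = 0.0274 in edgeR), in a comparison where 49.4% of genes passed, 27.4% higher and 22% lower. DESeq2's Wald test gave an adjusted p of 0.00112. With only the 2 groups compared in the edgeR fit, the log2 fold change was -2.03 (SE 0.196, adjusted p = 0.00291). The groups did not overlap, but the call was lost whenever 1 of the 4 libraries was left out: the adjusted p was 0.0919 without severe replicate 1, 0.0653 without severe replicate 2, 0.115 without rewatered replicate 1 and 0.07999 without rewatered replicate 2. Both rewatered root libraries remained above both libraries of the day 49/52 control, at 26.5 and 13.1 CPM. That difference, log2 2.10 (SE 0.62), had an adjusted p of 0.0547 in edgeR and was not called, with 17% of genes past the threshold. It passed in DESeq2's Wald test (adjusted p = 0.00229) and in limma on log2(RPKM + 1) (adjusted p = 0.0363). It was 2.69 without root day 49/52 control replicate 1, with an adjusted p of 0.107 in edgeR. The same severe and control libraries enter several of these comparisons, so their errors are shared.

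Watered root held more of the ferritin than watered leaf. On the scale of all 22 libraries the day 13 controls averaged 0.617 CPM in leaf and 19.4 CPM in root, a log2 difference of -4.98 for leaf over root (SE 0.80, adjusted p = 9.26e-05 in edgeR), or 31.6-fold lower in leaf. It was -3.62 without root day 13 control replicate 1 and -5.71 without replicate 2, and passed both times. After rewatering leaf averaged 1.18 CPM and root 84.2 CPM, a log2 difference of -6.14 (SE 0.79, adjusted p = 1.05e-05 in edgeR), or 70.7-fold lower in leaf. Between these organs 58.7% of 25939 genes passed at day 13 and 63.2% after rewatering. Under severe drought the leaf mean was 0.672 times the root mean (0.441 times without leaf severe replicate 1), and the libraries of leaf and root overlapped. On log2(RPKM + 1) the leaf over root differences were -2.65 at day 13 and -4.46 after rewatering, since watered leaf lies near the lowest value of that table, 1.0.

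No change was detectable in the tested comparisons of watered controls. The day 49/52 leaf control, which took part in choosing the gene, was not tested against the earlier leaf controls. The log2 fold change was 0.56 (SE 0.90, adjusted p = 0.789 in edgeR) for day 13 over day 0 in leaf, where 1.83% of genes passed, and 0.06 (SE 0.60, adjusted p = 0.9505 in edgeR) for day 49/52 over day 13 in root, where 30.9% passed. The root difference had no stable sign: it was -0.65 without day 13 control replicate 2, -0.54 without day 49/52 control replicate 1 and 1.42 without day 13 control replicate 1.

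**Figure D2:**
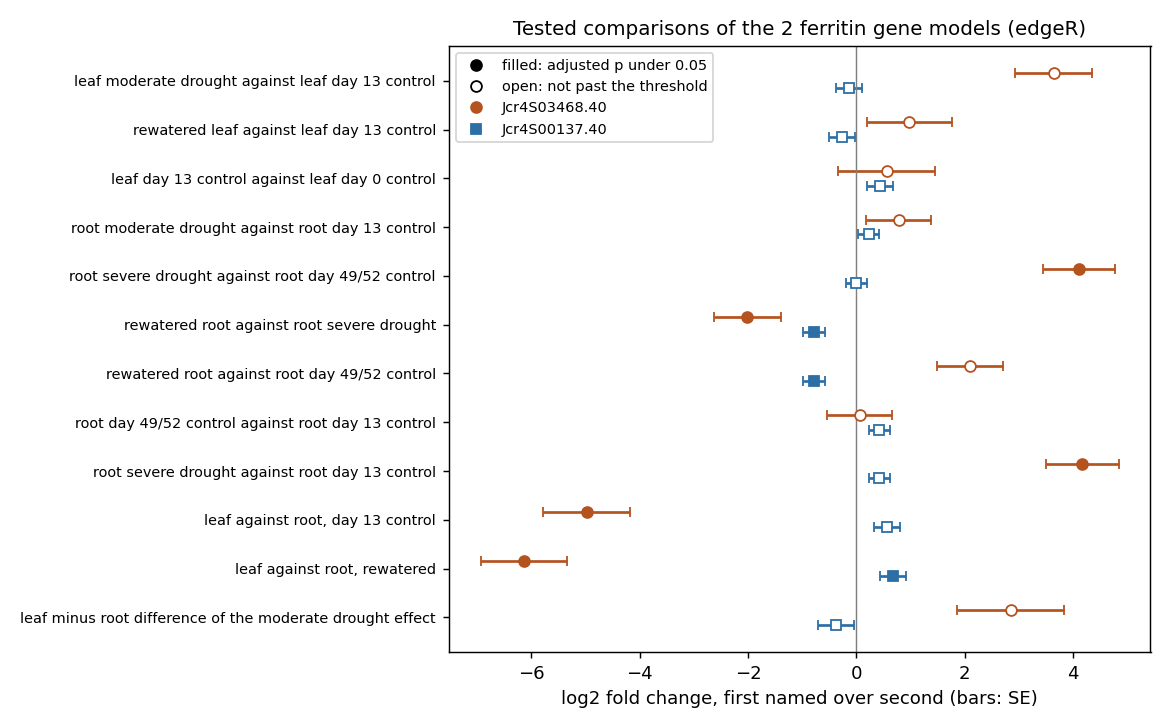
Log2 fold changes of both ferritin gene models in the 12 tested comparisons (edgeR), first named group over second, with bars for SE and filled symbols for an adjusted p under 0.05. Jcr4S03468.40 passed in 5 comparisons, higher in root severe drought against both controls, lower in rewatered root against severe drought, and lower in leaf than in root at day 13 and after rewatering.

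A second ferritin gene model, Jcr4S00137.40, is described as "chloroplast ferritin 2 precursor", and its levels were high throughout. It averaged 357 ± 120 CPM in severe leaf, against 275 ± 83.8 CPM in the day 49/52 leaf control, and 285 ± 42.1 CPM in severe root, against 285 ± 7.14 CPM in the day 49/52 root control (SD, n = 2 each). Over its 11 groups the means ran from 166 CPM in rewatered root to 357 CPM in severe leaf, a narrow span beside that of Jcr4S03468.40. Its log2 fold change in severe drought was 0.38 in leaf (SE 0.24, adjusted p = 0.203) and 0.00 in root (SE 0.19, adjusted p = 1.00), both in edgeR. In rewatered root it averaged 166 ± 22.04 CPM (SD, n = 2) and fell, with a log2 fold change of -0.78 against severe drought (SE 0.20, adjusted p = 0.0119 in edgeR) and of -0.78 against the day 49/52 control (adjusted p = 0.0343). It was higher in leaf than in root after rewatering, by 0.68 on the log2 scale (adjusted p = 0.0203 in edgeR). It passed in none of the other tests.

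Compared per length, the ferritin Jcr4S03468.40 overtook the second gene model in severe root alone. The authors' RPKM values were 333.3 and 291.1 for Jcr4S03468.40 in severe root and 258.5 and 236.8 for Jcr4S00137.40, so that Jcr4S03468.40 made up 56.3% and 55.1% of the sum. In severe leaf it had 330.3 and 173.1 RPKM beside 408.3 and 275.6 RPKM, or 44.7% and 38.6% of the sum. These are the only groups in which the sum of both models exceeded 400 RPKM, with 738.6 and 448.7 RPKM in severe leaf and 591.8 and 527.9 RPKM in severe root, while it ran from 160.3 to 330.5 RPKM in the libraries of all other groups.

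The share of Jcr4S03468.40 was lower in all other groups. It was 31.9% and 39.5% in rewatered root, 12.6% and 11.6% in moderate root, 15.8% and 5.30% in the day 13 root control and 7.84% and 4.08% in the day 49/52 root control. In leaf it was 1.44% and 4.18% under moderate drought, 1.12% and 1.04% after rewatering and between 0.608% and 0.829% in the watered controls, where the table's lowest value of 1.0 raises the share. No source used here states how reads that match both gene models were counted. In the watered leaf libraries Jcr4S03468.40 held only 0.148% to 0.217% of the reads of both models, and the part of shared reads in its levels was not tested.

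**Figure D3:**
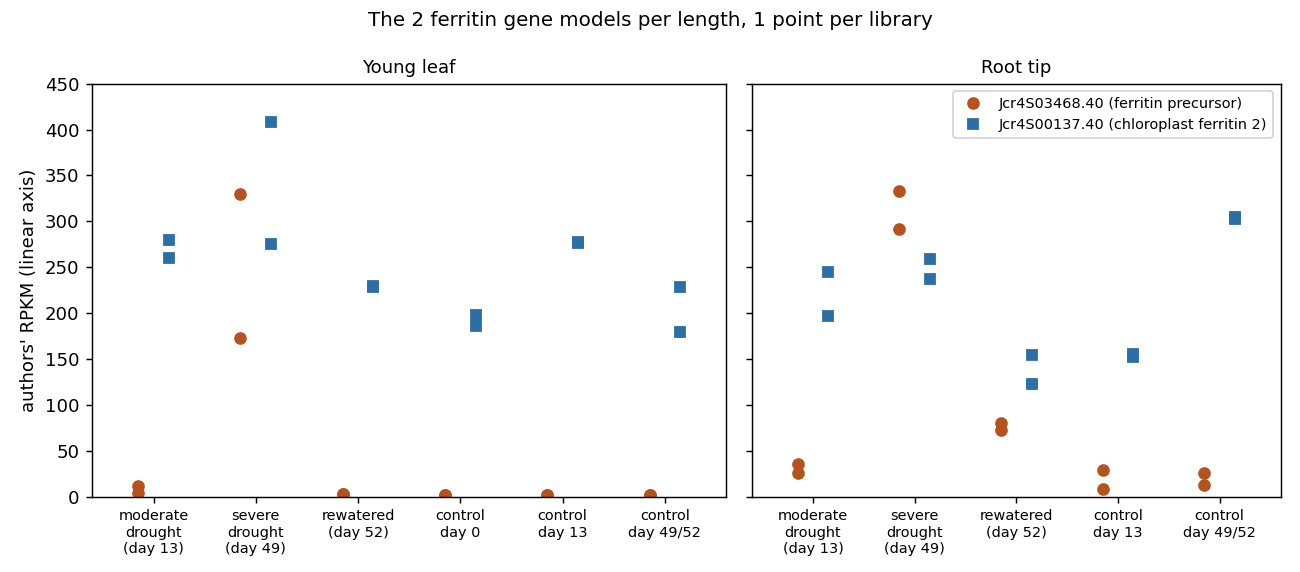
The authors' RPKM on a linear axis for Jcr4S03468.40 (circles) and Jcr4S00137.40 (squares), 1 point per library, young leaf on the left and root tip on the right. Jcr4S03468.40 approaches the second model in severe leaf and lies above it in severe root, where its share of the sum is 56.3% and 55.1%, while the second model stays between 122.5 and 408.3 RPKM in all groups.

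Gene models taken as iron-related were sorted by their descriptions into iron uptake and reduction, iron movement and storage, iron-sulfur cluster assembly, heme synthesis and breakdown, and ferredoxins and peroxide removal, besides the second ferritin. The uptake list also took in models described only as zinc transporters, so its counts are not of iron uptake genes alone. Of the 149 models in all, 89 were tested in leaf and 100 in root. In severe leaf 26 were higher and 25 lower than in the day 49/52 control, or 57.3%, beside 57.1% of all genes. Their median log2 fold change was 0.02, beside 0.03 for all genes. In severe root 18 were higher and 32 lower, or 50%, beside 45.1% of all genes, and the median was -0.46, beside -0.04 for all genes. Without root day 49/52 control replicate 1, the root counts were 9 higher and 25 lower. Under moderate drought none of 89 passed in leaf, where 0.00431% of all genes did, and 4 of 100 passed in root, beside 2.74%. Besides nicotianamine synthase and ferric reduction oxidase 4, described further on, the root calls were yellow stripe like 5 (Jcr4S00067.30, log2 5.23, adjusted p = 0.0468 in edgeR) and a heme oxygenase (Jcr4S06729.30, log2 -4.16, adjusted p = 0.0396), named after their values were seen. After rewatering 1 of 89 differed from the day 49/52 control in leaf (1.12%, beside 4.56% of all genes) and 24 of 100 did in root (24%, beside 17%).

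In severe root, where the ferritin was highest, none of 21 iron uptake and reduction models was higher and 7 were lower, with a median log2 fold change of -0.90, or 33.3% called in all. Of all genes 19.5% were higher and 25.6% lower in that comparison. The uptake models also differed between the watered root controls. In day 49/52 over day 13, 5 of 21 were higher and 9 lower (66.7%), beside 30.9% of all genes. Ferric reduction oxidase 4 (Jcr4S00346.110), of the enzyme family that reduces ferric iron at the cell surface, had 0.0738 and 0.211 CPM in severe root, against 18.2 and 25.3 CPM in the day 49/52 control (log2 -7.21, SE 0.48, adjusted p = 7.63e-05 in edgeR). The severe libraries held 3 and 9 of its reads. Zinc transporter 5-like (Jcr4S10628.20), of the ZIP family of zinc and iron importers, had 0.0984 and 0.117 CPM, against 5.69 and 8.67 CPM (log2 -6.02, SE 0.34, adjusted p = 4.62e-05). In moderate root the ferric reduction oxidase had 17.4 and 18.3 CPM, against 100 and 77.2 CPM in the day 13 control (log2 -2.31, adjusted p = 0.0292). The day 13 control thus stood above the later one, and both were far above severe root, whereas rewatered root (33.4 and 57.6 CPM) lay above the later control and below the day 13 control.

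In leaf the uptake list was mixed, with 4 of 14 models higher and 4 lower under severe drought (median log2 -0.07), or 57.1%, the same share as among all genes. Zinc transporter 8-like (Jcr4S02378.10) had 33.0 and 42.3 CPM in severe leaf, against 2.197 and 2.236 CPM in the day 49/52 control (log2 4.08, SE 0.30, adjusted p = 1.87e-06 in edgeR). A ferric reductase oxidase (Jcr4S00425.70) had 62.1 and 48.2 CPM, against 12.8 and 12.4 CPM (log2 2.13, SE 0.21, adjusted p = 1.64e-05). Zinc transporter 5-like (Jcr4S10628.20) fell in leaf as in root, to 0.947 and 0.867 CPM, against 4.14 and 4.13 CPM (log2 -2.19, SE 0.32, adjusted p = 0.000219 in edgeR). Zinc transporter 8-like was not called in severe root (log2 0.66, adjusted p = 0.122). Whether the leaf and root effects differ was not tested.

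Iron movement and storage, the list of nicotianamine synthases and of transporters for iron chelates and organelle iron, had 2 models higher and 13 lower of 20 in severe root (75%, median log2 -1.33), beside 19.5% of all genes higher and 25.6% lower. Between the watered root controls, day 49/52 over day 13, 4 of 20 were higher and 7 lower (55%), beside 30.9% of all genes. In severe leaf 5 were higher and 5 lower of 18 (55.6%, median 0.18), near the 57.1% of all genes. Yellow stripe like 1 (Jcr4S00108.80), of the family that carries iron bound to nicotianamine, fell in both organs. It had 5.84 and 6.33 CPM in severe leaf, against 59.5 and 73.8 CPM in the day 49/52 control (log2 -3.45, SE 0.19, adjusted p = 1.69e-07 in edgeR), and 2.63 and 2.68 CPM in severe root, against 42.3 and 71.3 CPM (log2 -4.42, SE 0.40, adjusted p = 0.000214). In root its day 13 control stood at 9.98 and 5.92 CPM, well below the later control. The ysl7-like transporter (Jcr4S00515.10) had 1.78 and 1.37 CPM in severe leaf, against 24.3 and 16.4 CPM (log2 -3.69, SE 0.25, adjusted p = 9.08e-07). Nicotianamine synthase (Jcr4S00112.230), which makes the chelator, had 6.59 and 8.47 CPM in severe root, against 45.9 and 37.8 CPM (log2 -2.47, SE 0.20, adjusted p = 0.000159), but 60.6 and 63.3 CPM in moderate root, against 20.5 and 27.3 CPM in the day 13 control (log2 1.37, adjusted p = 0.0277).

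Iron-sulfur cluster assembly, which uses iron in mitochondria and plastids, had 8 models higher and 2 lower of 16 in severe leaf (62.5%, median log2 0.26), beside 27.6% of all genes higher and 29.5% lower. In severe root 7 were higher and 4 lower of 17 (64.7%, median 0.28), beside 19.5% of all genes higher and 25.6% lower. A mitochondrial-like cysteine desulfurase (Jcr4S01070.20), the type of enzyme that supplies the sulfur, rose in both: to 170 and 169 CPM in severe leaf, against 90.2 and 77.8 CPM in its control (log2 1.01, adjusted p = 8.74e-05 in edgeR), and to 315 and 255 CPM in severe root, against 72.0 and 67.7 CPM (log2 2.03, adjusted p = 0.000136). Another model described as a mitochondrial cysteine desulfurase (Jcr4S03403.10) fell in root (adjusted p = 0.000430), with 1 and 2 reads in the severe libraries, against 64 and 79 in the day 49/52 control. It is 1 of 31 models described that way. An iron-sulfur cluster assembly model (Jcr4S06068.40) had 14.05 and 13.2 CPM in severe leaf, against 5.55 and 7.97 CPM (log2 1.01, adjusted p = 0.00158).

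The heme list had 3 models higher and 1 lower of 12 in severe leaf (33.3%, median log2 0.09), and 1 higher and 3 lower of 13 in severe root (30.8%, median 0.14). Both shares lay below those of all genes, 57.1% in leaf and 45.1% in root. A protoporphyrinogen enzyme model (Jcr4S01162.50) had 48.9 and 50.5 CPM in severe leaf, against 19.9 and 19.8 CPM (log2 1.32, adjusted p = 7.36e-06 in edgeR). Uroporphyrinogen decarboxylase (Jcr4S02381.10), an earlier enzyme of the pathway, had 49.5 and 41.3 CPM, against 92.1 and 70.9 CPM (log2 -0.85, adjusted p = 0.00115). A pair of heme oxygenase models, of the enzyme that breaks heme down and frees its iron, was lower in severe root, at log2 -1.41 for Jcr4S00156.10 (adjusted p = 0.000650) and -1.32 for Jcr4S10970.30 (adjusted p = 0.00116). Their levels lay close together in all libraries, and whether they share reads is not known.

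The list of ferredoxins and peroxide removal had 6 models higher and 13 lower of 28 in severe leaf (67.9%, median log2 -0.36), beside 57.1% of all genes. Besides ferredoxins, catalases and ascorbate peroxidases, its search terms were superoxide dismutase and aconitase, which are not enzymes that remove hydrogen peroxide. In severe root 8 were higher and 5 lower of 28 (46.4%, median 0.06), near the 45.1% of all genes. A chloroplast ferredoxin (Jcr4S00866.90), an electron carrier of photosynthesis, had 194 and 184 CPM in severe leaf, against 517 and 734 CPM (log2 -1.73, adjusted p = 4.39e-05 in edgeR). Among the ascorbate peroxidases, which use ascorbate to remove peroxide, Jcr4S00177.160 had 16.8 and 21.4 CPM in severe leaf, against 4.20 and 5.59 CPM (log2 1.96, adjusted p = 2.40e-05). In root Jcr4S00717.110 had 301 and 313 CPM under severe drought, against 5.99 and 7.37 CPM (log2 5.52, SE 0.20, adjusted p = 2.09e-05), a level close to that of the ferritin in the same libraries on the CPM scale, which does not correct for length. Jcr4S00609.60 rose less in root, with 3.27 and 4.69 CPM, against 0.905 and 1.02 CPM (log2 2.05, adjusted p = 0.00298). In leaf, where its levels were higher, Jcr4S00609.60 was lower under severe drought. It had 55.7 and 52.2 CPM, against 57.9 and 100 CPM (log2 -0.55, adjusted p = 0.0478 in edgeR).

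In rewatered root, where the ferritin fell, 43 of the 100 iron-related models were higher and 21 lower than under severe drought, or 64%, beside 49.4% of all genes. Of the uptake models 12 were higher and 2 lower of 21 (median log2 2.47), and of the movement models 13 were higher and 1 lower of 20 (median 1.35), beside a median of 0.06 for all genes. Of all genes 27.4% were higher in this comparison and 22% lower. The ferric reduction oxidase 4 model (Jcr4S00346.110) had 33.4 and 57.6 CPM in rewatered root, against 0.0738 and 0.211 CPM under severe drought (log2 8.28, SE 0.50, adjusted p = 4.71e-05 in edgeR). The ascorbate peroxidase Jcr4S00717.110 had 6.67 and 8.02 CPM, against 301 and 313 CPM (log2 -5.38, adjusted p = 1.29e-05). Since the severe libraries serve both comparisons, opposite signs for a gene in drought and in rewatering are not separate evidence.

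**Figure D4:**
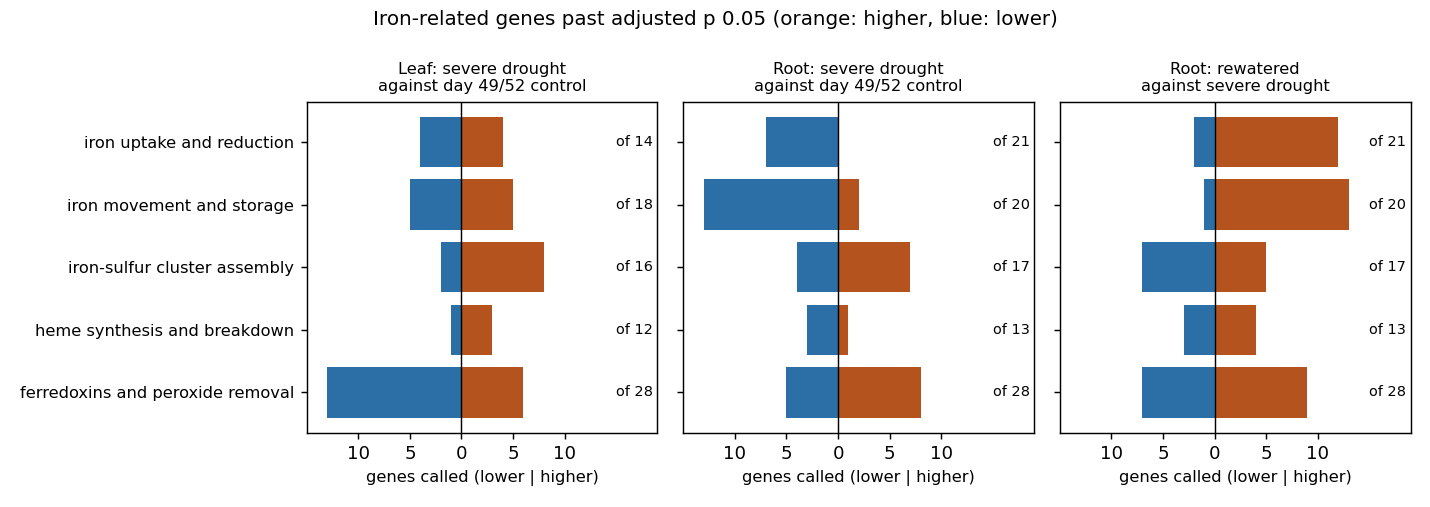
Numbers of gene models of 5 iron-related lists that passed an adjusted p of 0.05 in edgeR, higher to the right and lower to the left, with the number tested at the edge of each panel. In severe root none of 21 uptake models was higher and 7 were lower, beside 19.5% of all genes higher and 25.6% lower. In rewatered root 12 of 21 were higher than under severe drought and 2 lower, beside 27.4% of all genes higher and 22% lower.

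The pattern of the ferritin over the 11 group means of log2 CPM was compared with that of 25938 other genes by Pearson's correlation. The points share libraries and their scaling, and they include the groups the ferritin was chosen by, so the values are a description. The median correlation was 0.0973, 459 genes reached 0.9 and 63 reached 0.95. The second ferritin gene model had -0.0229.

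The 5 described genes with the highest correlation were Jcr4S01101.30 (mtd1 family protein, r = 0.982), Jcr4S04837.10 (vacuolar protein sorting 45, a regulator of vesicle fusion, r = 0.981), Jcr4S00219.20 (described only as "copper amine", r = 0.980), Jcr4S00783.40 (transcription factor myb1r1-like, r = 0.977) and Jcr4S00491.20 (described only as "rac-gtp binding", r = 0.973). The shape was alike, but the size was not. Between their highest and lowest group mean the ferritin spanned 9.68 log2 units, Jcr4S01101.30 6.47, Jcr4S00219.20 2.96 and Jcr4S04837.10 only 0.618. Jcr4S01101.30 had 40.2 and 77.7 CPM in severe leaf, against 2.07 and 2.53 CPM in the day 49/52 leaf control, and 101 and 97.2 CPM in severe root, against 13.8 and 6.92 CPM in the day 49/52 root control. Jcr4S04837.10 had 63.6 and 68.4 CPM in severe leaf, against 47.2 and 47.0 CPM.

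**Figure D5:**
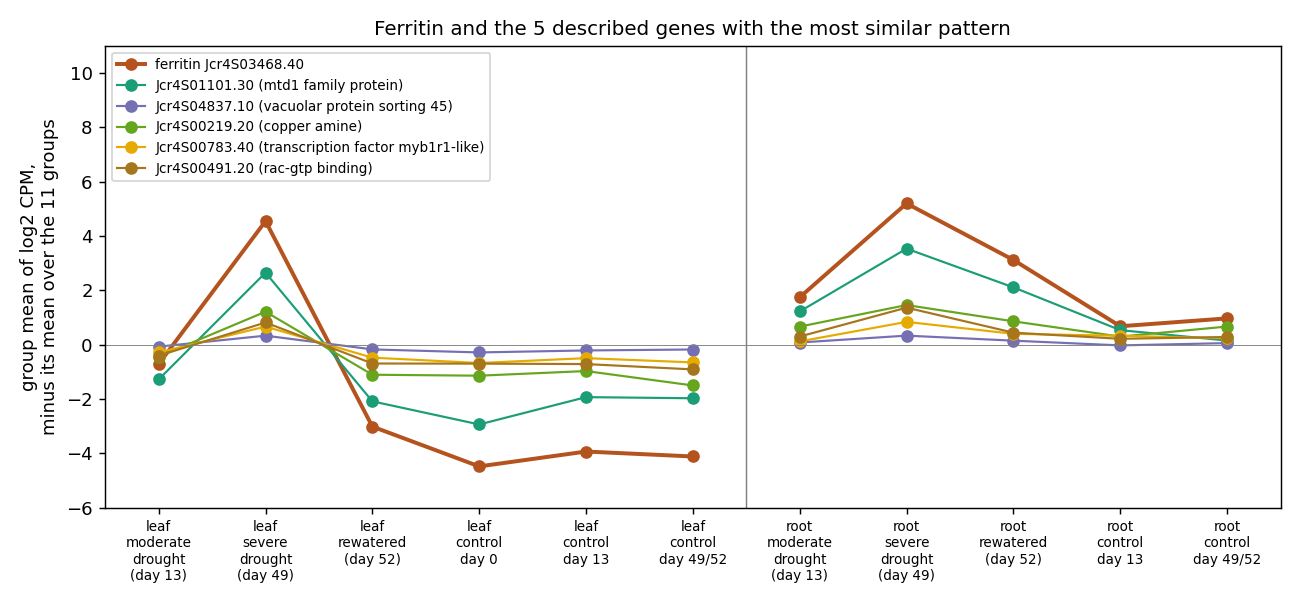
Group means of log2 CPM less each gene's mean over the 11 groups, for the ferritin (thick line) and the 5 described genes with the highest correlation to it, leaf groups on the left and root groups on the right. All 6 genes peak under severe drought in both organs, and the ferritin's span of 9.68 is the largest of the 6.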

How the data were processed

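The authors deposited read counts per gene model, with no normalization, and an RPKM table of the same libraries, per the file headers. In that table a count of 0 always appears as its lowest value, 1.0, and once sorted, its columns are within 0.7 of each other, so RPKM differences between libraries are relative to a nearly common distribution. Per the labels, libraries came from 400 ng of total RNA with a TruSeq v2 kit that keeps no strand, read as 50 bp single ends. The sources used here do not give the aligner, the counting program or the genome build, and reads carry no molecular identifiers.

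The tests used edgeR 4.0.16 in R 4.3.3, with filterByExpr, TMM scaling and a robust quasi-likelihood fit of group means over 12 leaf libraries (23200 genes), 10 root libraries (24924 genes) or all 22 (25939 genes). P-values were two-sided and Benjamini-Hochberg adjusted over all genes of a fit, with a threshold of 0.05. SE was the size of the log2 fold change over the root of F. CPM levels use TMM-scaled totals within an organ, or over all libraries where organs are compared. Alternatives used DESeq2 1.42, limma 3.58.1 on log2(RPKM + 1) and log2(RPKM + 0.1), other filters and left-out libraries. The scripts were tested on simulated counts.

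The ferritin and the iron-related lists were chosen with earlier results of these data known. Lists were patterns on the authors' descriptions, and 10 "nodulin 21" models were left out because the term also covers other transporters. Named iron-related genes are the 2 of each list with the smallest p in severe leaf and in severe root. Similar genes are the 5 described ones with the highest correlation. No sequences or positions are given, since the reference gene table used here has other identifiers.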

Additional observations from a re-analysis of the deposited data

How the results depend on the processing

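Of 210 alternative values over 19 results, 185 were taken as unchanged. Tested values had to keep their direction and their side of the threshold. Described ratios had to move by no more than the spread between replicates. Counts of iron-related genes had to stay within a factor of 1.5, a wide bound that took 35 calls in severe leaf, against 51, as unchanged. The rise in severe root against either control, and the lower level in leaf than in root at day 13 and after rewatering, passed in all 12 alternatives each. Without a filter on low counts, SE were far smaller and 5 uncalled comparisons passed: leaf moderate (log2 3.64), rewatered leaf against day 13 (1.01), root moderate (0.79), rewatered root against day 49/52 (2.17) and the organ difference of the moderate effect (2.81). The cause was not tested. The root controls, day 49/52 over day 13, then gave -0.023. DESeq2's Wald test also called leaf moderate (3.62) and rewatered root against day 49/52 (2.08). Rewatered root also passed in limma on RPKM plus 1 (1.99) and plus 0.1 (2.05). The RPKM table gave smaller described ratios: severe leaf against day 49/52 log2 7.25 (7.17 with 0.1 added), against day 13 7.21 (7.13), and rewatered against severe leaf -6.65 (-6.60).

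With 1 library left out, log2 values ran from 2.22 to 4.35 for leaf moderate, 0.82 to 1.16 for rewatered leaf against day 13, 0.071 to 2.15 for root moderate, 1.68 to 2.69 for rewatered root against day 49/52, -2.20 to -1.90 for rewatered against severe root, -0.65 to 1.42 for the root controls, 1.45 to 3.55 for the organ difference, 8.13 to 9.21 for severe leaf against day 49/52, 8.00 to 9.02 against day 13, and -8.05 to -7.03 for rewatered against severe leaf. Called iron-related genes numbered 44 to 49 in severe leaf (51 with all libraries) and 34 to 37 in severe root (50). With only the groups compared in the fit, they numbered 35 in leaf and 62 in root.

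Replicate numbers showed no steady pairing of libraries within an organ: deviations of equally numbered libraries correlated at -0.207 to 0.264 in leaf, and at -0.227 to 0.197 in root. Pairing of leaf with root libraries was not examined, and the tests between organs took them as independent. A replicate block gave 2.25 for rewatered root against day 49/52, with an adjusted p of 0.0349 in edgeR, and changed no other call of the ferritin. It moved the iron-related calls to 47 in severe leaf and 47 in severe root. Against the day 13 control, an alternative chosen after seeing the data, rewatered root gave 2.15 (adjusted p = 0.144 in edgeR), and 49 and 69 iron-related genes were called in severe leaf and severe root. With 2 libraries a group, 19 to 30 reads of the ferritin in each watered leaf library and a spread shared over all leaf groups, small differences among watered leaves were not detectable. For leaf day 13 over day 0 the SE was 0.90, and 0.41 with only those groups in the fit, with no call either way in edgeR.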
